A study of Mus musculus with 76 samples.

Results

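The 8 genes described here encode transcription factors tied to the making or keeping of Pomc neurons: *Tbx3*, *Isl1*, *Nkx2-1*, *Prdm12*, *Nhlh2*, *Sox2*, *Foxo1* and *Tcf4*. They were taken by name from the 56980 mouse genes of a Patch-seq count table, and all 8 were found there. Each was counted in every library by its share of the cell's counts (CPM, the count per 1000000 counts) and by whether the cell held any count of it. In Patch-seq a neuron is recorded with a glass pipette and its content is then aspirated for sequencing, so each library is 1 cell. All 8 genes passed the filter on low counts, at least 5 counts in at least 3 cells, together with 12265 genes of the table.

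In all, 76 cells came from the hypothalamus of male mice with PomcCreERT2, a tdTomato reporter and Pomc-eGFP. The sources differ, since the methods for patched cells name PomcCreERT2;tdTomato alone. All mice received tamoxifen for 5 days at 12 weeks of age, which turns on tdTomato for good in cells where Cre, driven by *Pomc* promoter elements, is then active. Pomc+ cells showed eGFP, the readout of present *Pomc* promoter activity, and Ghost cells showed tdTomato without eGFP. Mice were fed chow diet (CD) or high-fat diet (HFD, 60% of calories from fat) for 6 months. CD gave 23 Pomc+ and 15 Ghost cells, HFD 19 of each label, from 5 mice per diet. The labels tie no cell to a mouse, so each group is 1 sample, its cells are not replicates of the condition, and no difference between groups was given a test. Intervals are exact 95% intervals (Clopper-Pearson for shares, Poisson for counts) and cover counting error only, without molecular identifiers.

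Pomc neurons of the arcuate nucleus make the precursor of the melanocortin peptides that curb food intake. Their identity is set during development by patterning factors and is then held by a small set of factors that stay on in the adult cell and act on distant neuronal enhancers of *Pomc* as well as on its promoter. Some of these factors carry signals of energy state. Foxo1 represses *Pomc* while in the nucleus and leaves the nucleus when insulin acts. Stat3, activated by leptin, opposes Foxo1.

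The labels were first set against the transcripts. Total counts per cell lay between 4057 and 1452605 with a median of 322652, and 7 genes with a count in every cell took 43.7% of all counts. The group medians were 339691 in Pomc+ CD, 123528 in Ghost CD, 393797 in Pomc+ HFD and 333785 in Ghost HFD cells. *Pomc* itself was counted in 41 of 42 Pomc+ cells and in 32 of 34 Ghost cells, with median levels of 6176 and 2291 CPM on CD and of 2206 and 4171 CPM on HFD, so the Ghost label stands for absent eGFP and not for absent transcript. All 6 neuronal markers examined were counted in at least 36 cells, led by *Snap25* in 67. Among markers of other cells, those of astrocytes and microglia summed to 0 in some cells of every group and to as much as 1686 and 7821 CPM in others. *Rax*, a tanycyte factor, was at 0 in all cells, and *Npy* and *Agrp* of the neighbouring AgRP neurons were counted in 17 and 9 cells.

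The proximal *Pomc* promoter is shown because it carries letters that some of these factors' families recognise. The RefSeq sequence of the 250 bases before the start of *Pomc* (GRCm38.p6, chr12:3954695-3954944, plus strand) reads 5′ to 3′ as follows, with motif matches in capitals.
Pomc promoter: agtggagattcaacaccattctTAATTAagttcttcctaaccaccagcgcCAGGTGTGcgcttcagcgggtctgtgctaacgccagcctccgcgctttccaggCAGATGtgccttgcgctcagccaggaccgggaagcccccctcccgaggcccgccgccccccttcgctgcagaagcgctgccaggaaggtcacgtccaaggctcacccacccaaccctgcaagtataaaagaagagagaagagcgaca
The search covered both strands. The E-box CANNTG, the core of basic helix-loop-helix factors such as Nhlh2 and Tcf4, was found 2 times, from 200 and from 147 bases before the start, and 66.2% of 32526 distinct promoters of this length hold at least 1. The homeodomain core TAAT, the kind that Isl1 reads, was found 2 times as overlapping matches in 1 run that begins 228 bases before the start, and 54.8% of promoters hold it. The T-box core GGTGTG, the kind that Tbx3 reads, was found 1 time, 198 bases before the start, where it overlaps the first E-box, and is held by 16.3% of promoters. The forkhead core GTAAACA (3.17% of promoters), the Sox core ACAAT (27.4%) and the Nkx2 core CAAGTG (11.5%) were not among these letters. A match describes the sequence and shows no binding, and the neuronal enhancers lie outside this window.

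Levels were first compared between genes per length. Over all 76 cells and per kilobase of annotated exons (GENCODE M21, GRCm38), *Isl1* had the highest mean level of the 8 genes at 27 CPM per kb. It was followed by *Sox2* (11.7), *Prdm12* (9.88), *Nhlh2* (6.28), *Tbx3* (4.90), *Nkx2-1* (4.14), *Tcf4* (3.54) and *Foxo1* (1.25). *Pomc* stood at 4965 CPM per kb. Between *Isl1* and *Sox2* the ranges of the 4 group means did not overlap, with 24.2 to 36.1 against 6.68 to 16.8 CPM per kb. From *Sox2* down to *Foxo1*, every pair of neighbours overlapped in these ranges. The order within that stretch is therefore not larger than the spread between groups, and the value of *Tcf4* rests on 27382 exon bases summed over all its isoforms.

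None of the 8 factors was counted in every cell. *Tcf4* was counted in 49 of 76 cells (64.5%), *Isl1* in 44 (57.9%), *Tbx3* in 34 (44.7%), *Prdm12* in 26 (34.2%), *Nhlh2* in 24 (31.6%), *Nkx2-1* and *Sox2* in 21 each (27.6%) and *Foxo1* in 11 (14.5%). Cells with no count do not show an absent transcript at this depth. When every cell with at least 40000 counts was thinned to that number, the shares over 68 cells lay between 8.01% for *Foxo1* and 51.1% for *Isl1* (mean of 20 draws).

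**Figure D1:**
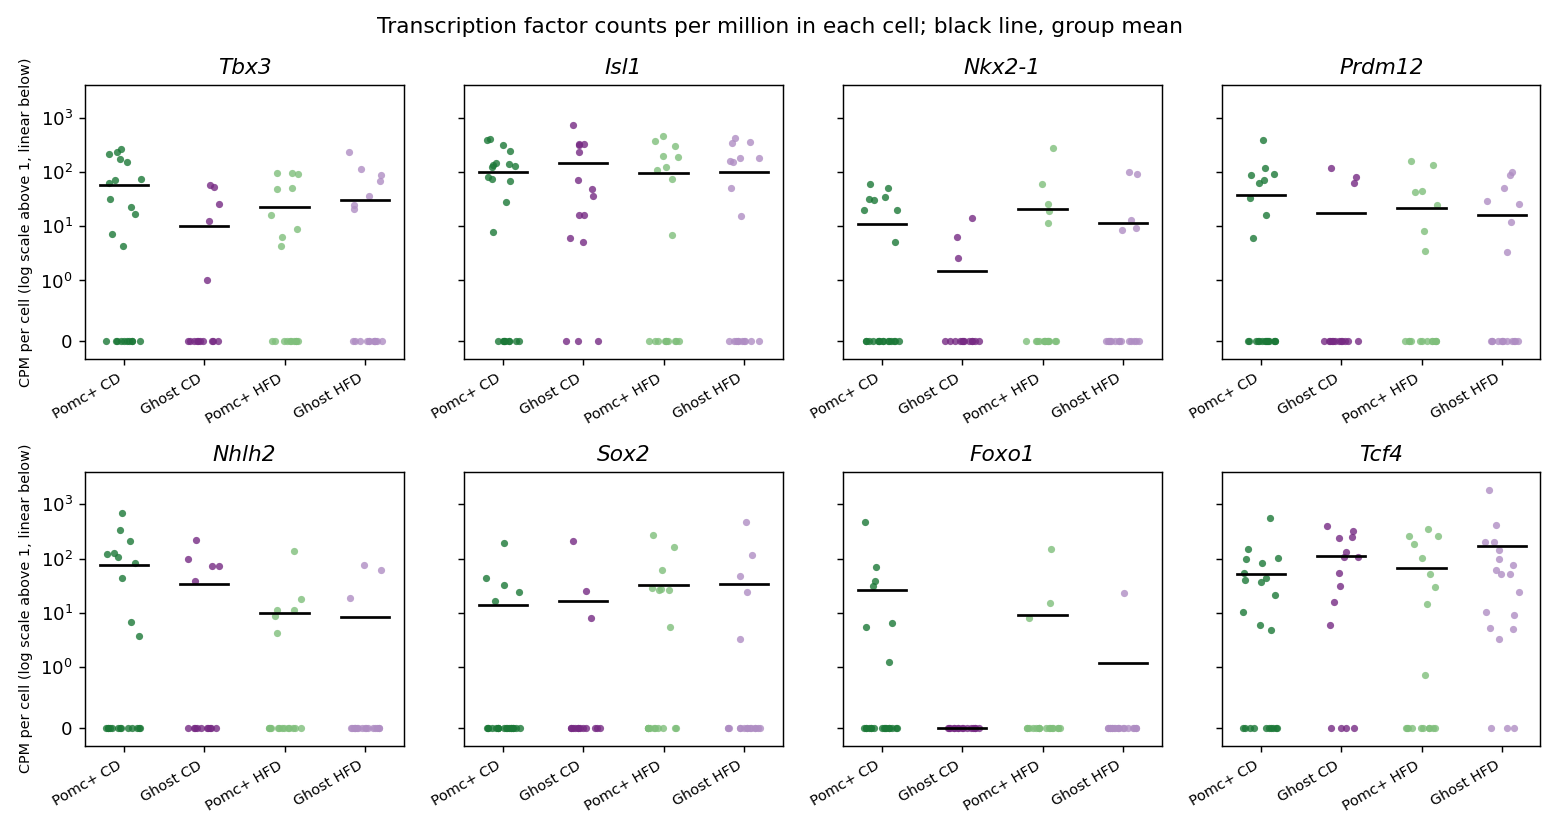
CPM of each factor (vertical axis, logarithmic above 1) in each of the 76 cells, by label and diet, with the group mean as a black line. Most factors have a row of cells at 0 in every group, *Foxo1* has no Ghost cell on CD above 0, and 1 Ghost cell on HFD reaches 1860 CPM of *Tcf4*.

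The first question was whether Ghost cells differ from Pomc+ cells in these factors. With both diets joined, 5 of 8 factors had a lower mean CPM in Ghost cells, where 56.2% of all genes tested had. *Nkx2-1*, *Nhlh2* and *Foxo1* were lower by 2-fold or more, 3 of 8 where 26% of all genes tested were, and *Tcf4* was higher by 2-fold or more, 1 of 8 where 16.4% of all genes were. The median log2 ratio over the 8 factors was -0.91, beside -0.17 over all genes. On CD alone, 5 factors were lower by 2-fold or more (31.6% of all genes) and 1 was higher (23.5%). Their median log2 ratio over all 8 was -1.15. Part of these calls rested on shallow cells. Over CD cells with at least 40000 counts, *Prdm12* was at -0.94, *Nhlh2* at -0.47 and *Tcf4* at 0.004, all under 2-fold. *Sox2* was then at -2.44, and *Tbx3*, *Nkx2-1* and *Foxo1* stayed past 2-fold. On HFD alone, 1 factor was lower by 2-fold or more (34.2% of all genes) and 1 was higher (21.4%), with a median of -0.13. The number with a lower mean in Ghost cells was 5 on CD and 4 on HFD, but 6 on each after thinning, so these counts do not set the diets apart. The share of all genes with a lower mean in Ghost cells was 54.6% on CD and 57% on HFD. The astrocyte markers were also lower in Ghost cells, 6 of 6 with a median log2 ratio of -1.16 over both diets, -1.41 on CD and -1.85 on HFD (5 of 6 and 6 of 6). Their part in the factors' values was not tested.

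**Figure D2:**
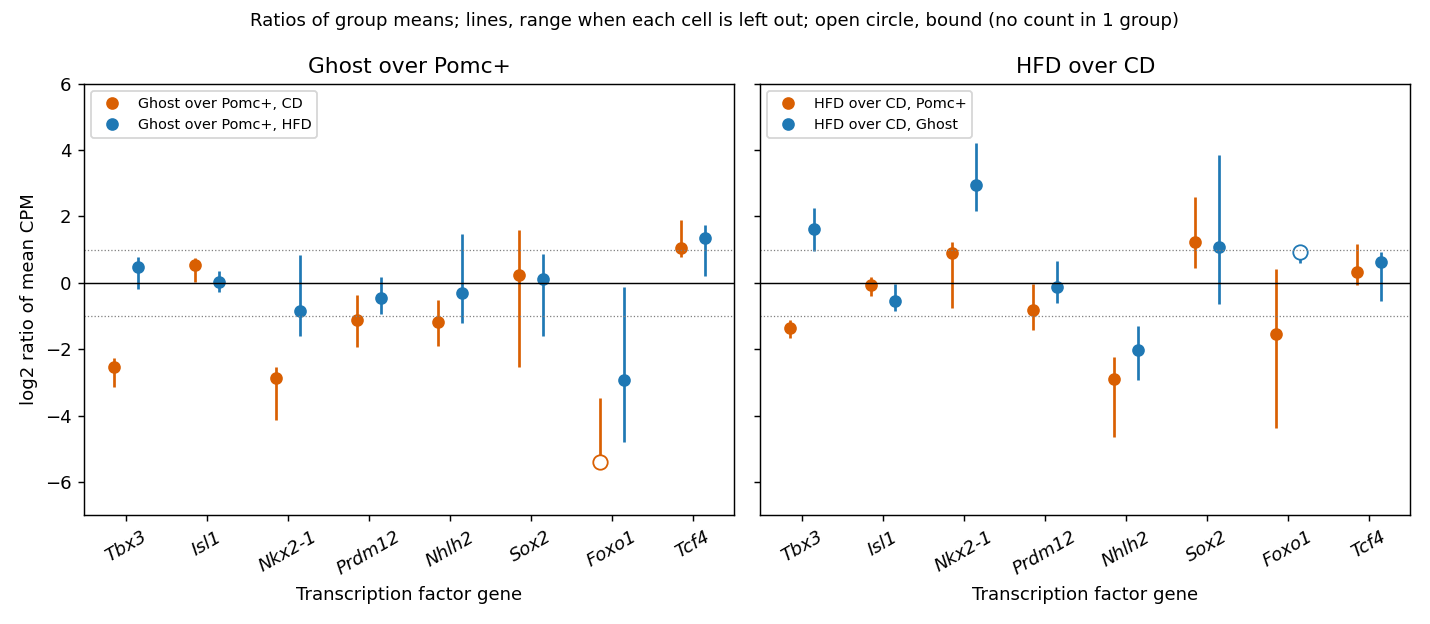
Log2 ratio of mean CPM (vertical axis) for each factor, left for Ghost over Pomc+ cells on each diet and right for HFD over CD in each label. Points are the ratios, lines their range when each cell is left out in turn, open circles limits where 1 group had no count, and dotted lines mark 2-fold. *Tbx3* and *Nkx2-1* on CD keep their lines below the lower dotted line, whereas the lines of *Sox2* cross 0 on both diets.

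*Foxo1*, the forkhead repressor of *Pomc*, had the widest ratio of mean CPM between the labels. It was counted in 10 of 42 Pomc+ cells (23.8%, 95% interval 12.1 to 39.5) and in 1 of 34 Ghost cells (2.94%, 0.0744 to 15.3). On CD, 7 of 23 Pomc+ cells and 0 of 15 Ghost cells held it, where 0 allows a share of up to 20% (3 of 15 cells) and the exact interval reaches 21.8%. On HFD the numbers were 3 of 19 and 1 of 19. After thinning, 14% of Pomc+ and 0% of Ghost cells on CD held it. The median was 0 CPM in all 4 groups, and the highest cell reached 467 CPM in Pomc+ CD, 153 in Pomc+ HFD and 23.1 in Ghost HFD. The groups overlapped, since 32 Pomc+ cells were also at 0.

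In summed counts, 170 *Foxo1* counts (145 to 198) were in Pomc+ cells and 7 (2.81 to 14.4) in Ghost cells. Over both diets the mean was 19 CPM in Pomc+ and 0.679 CPM in Ghost cells, a log2 ratio of -4.80. This ratio was at or beyond 2-fold under every other setting tried, and leaving out each cell in turn kept it between -6.43 and -3.57. With Ghost cells on CD set at the limit of 3 counts, their summed level was 18-fold lower than in Pomc+ cells on CD. The exact interval for 0 counts reaches 3.69, so the ratio may be smaller. Of the 118 counts in Pomc+ CD cells, 56 were in cell 631 and 44 in cell 685. The 11 cells with *Foxo1* are few, and 1 of them, cell 685 (Pomc+ CD, 44 counts), holds 56.9% of the summed CPM. On HFD the log2 ratio of -2.94 became -0.11 without cell 717 (Pomc+ HFD, 40 counts). At 40000 counts per cell, 4.70 of 39 Pomc+ cells and 0.75 of 29 Ghost cells held it on average.

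The 11 cells with *Foxo1* were not those lowest in *Pomc*. Their *Pomc* levels ran from 156 to 31190 CPM and their ranks among the 76 cells from 4 to 70. In the only Ghost cell with *Foxo1*, cell 671 on HFD, *Pomc* stood at 7870 CPM, rank 20, and 7210 genes were counted.

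*Tcf4*, an E protein that pairs with other basic helix-loop-helix factors, went the other way. It was counted in 27 of 34 Ghost cells (79.4%, 62.1 to 91.3) and in 22 of 42 Pomc+ cells (52.4%, 36.4 to 68). On CD the median was 53.3 CPM in Ghost and 5.89 CPM in Pomc+ cells, with highest cells at 397 and 560 CPM. On HFD the medians were 52.2 and 0 CPM, and the highest cells 1860 and 348 CPM. The lowest cell was at 0 in every group, so the groups overlapped although the middle of the Ghost cells was higher on both diets.

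Mean *Tcf4* was 144 CPM in Ghost and 58.9 CPM in Pomc+ cells, 2.44-fold higher. Much of this lay in shallow libraries. Of the 8 cells under 40000 counts, *Tcf4* was counted in 5 of 5 Ghost and in 0 of 3 Pomc+ cells. Cell 657 (Ghost HFD), with 24 *Tcf4* counts among 12900, gave 38.1% of the summed CPM of all Ghost cells, and without it the log2 ratio of 1.29 was 0.64. Over cells with at least 40000 counts the means were 68.6 and 63.4 CPM, a log2 ratio of 0.11, while the medians remained apart at 24.3 and 5.89 CPM. After thinning, 53.4% of Ghost and 44.6% of Pomc+ cells held it.

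**Figure D3:**
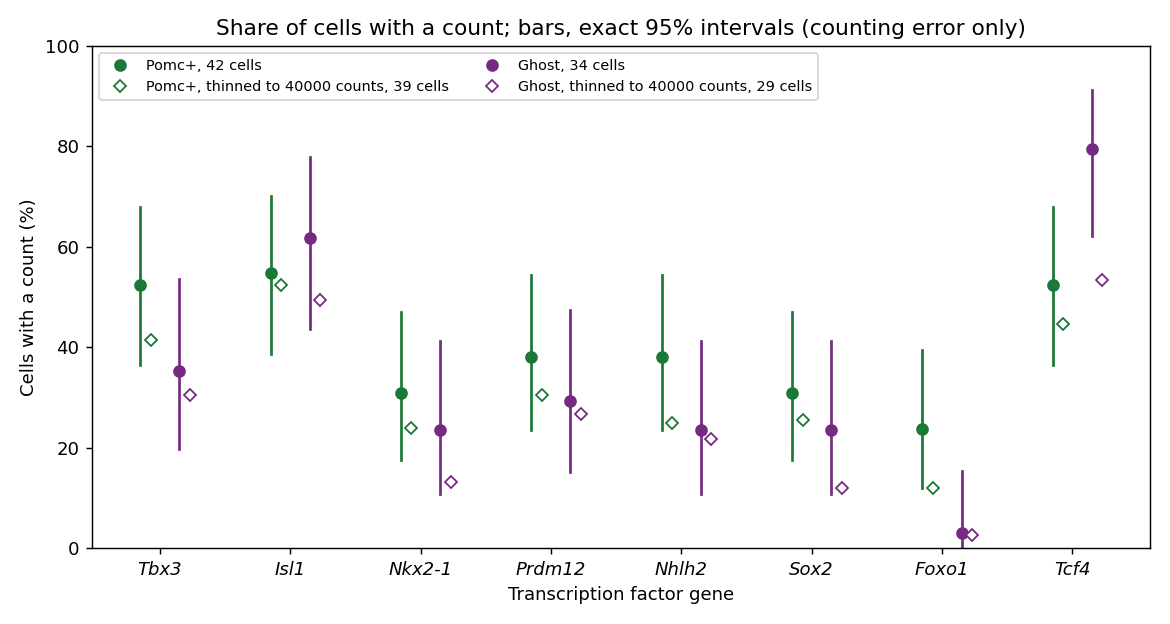
Share of cells with a count (vertical axis, percent) for each factor in Pomc+ and Ghost cells, both diets joined, with exact 95% intervals and, as open diamonds, the share after thinning to 40000 counts. *Foxo1* is low in Ghost cells in both readings, and the Ghost share of *Tcf4* moves from 79.4% to 53.4% on thinning.

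*Tbx3*, a T-box repressor needed for the identity of arcuate peptide neurons, was lower in Ghost cells on CD. It was counted in 13 of 23 Pomc+ cells and 5 of 15 Ghost cells. After thinning, 48.6% of Pomc+ and 26.25% of Ghost cells on CD held it. The Pomc+ cells had a median of 7.15 and a highest value of 259 CPM, and the Ghost cells a median of 0 and a highest value of 58.5 CPM. In summed counts, 850 were in the Pomc+ and 49 in the Ghost cells. The mean CPM of 57.1 against 9.96 was 5.74-fold lower in Ghost cells, and the log2 ratio of -2.52 lay between -3.14 and -2.27 when each cell was left out. It remained past 2-fold under all other settings tried. Among runs of consecutive cell numbers on CD, the Ghost mean was lower in all except cells 684 to 692. There 2 of 4 Ghost cells (mean 21 CPM) and 0 of 4 Pomc+ cells held it.

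On HFD *Tbx3* gave no such difference, with 9 of 19 Pomc+ and 7 of 19 Ghost cells and means of 22.2 and 30.7 CPM. Its log2 ratio there was 0.47, and -0.19 without cell 715 (Ghost HFD, 25 counts). A pair of antisense genes lies beside *Tbx3* (chr5:119670669-119684724, plus strand). *Tbx3os1* shares 115 exon bases with it and was counted in 8 cells, and *Tbx3os2*, which shares none, in 15 cells. Libraries of this kind do not mark strand, so reads from the bases shared by *Tbx3* and *Tbx3os1* cannot be told apart. *Tbx3os2* was counted in 8 of 42 Pomc+ and 7 of 34 Ghost cells. Its means were 15.5 CPM in Pomc+ and 33.4 CPM in Ghost cells, but its summed counts were 423 and 223. With summed counts over summed totals its log2 ratio was -0.48, so its direction depends on the measure.

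*Nkx2-1*, a homeodomain factor that patterns the ventral hypothalamus and stays on in Pomc neurons, was sparse. On CD it was counted in 8 of 23 Pomc+ cells (162 counts, highest 60.03 CPM) and in 3 of 15 Ghost cells (11 counts, 5.49 to 19.7, highest 13.9 CPM), with a median of 0 in both. After thinning, 27.6% of Pomc+ and 8.33% of Ghost cells on CD held it. The means of 11 and 1.52 CPM gave a log2 ratio of -2.86, with -4.12 to -2.53 when each cell was left out, and it was past 2-fold under all other settings. On HFD 5 of 19 cells held it in each label. The log2 ratio there was -0.84, and 0.85 without cell 670 (Pomc+ HFD), which held 70.5% of that group's summed CPM. Over both diets the log2 ratio of -1.10 was -0.33 without that cell, -0.40 with summed counts and -0.55 within blocks of cell numbers, all under 2-fold.

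*Isl1*, the LIM-homeodomain factor that binds the neuronal *Pomc* enhancers, did not differ by 2-fold between the labels. It was counted in 21 of 34 Ghost and 23 of 42 Pomc+ cells, with means of 118 and 97.8 CPM. On CD 12 of 15 Ghost and 14 of 23 Pomc+ cells held it, and after thinning 57.9% and 57.4% did. Its highest level, 735 CPM, was in cell 684, a Ghost cell on CD. On HFD the means were 97.8 CPM in Ghost and 96.0 CPM in Pomc+ cells, a log2 ratio of 0.03.

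*Prdm12*, a PR-domain zinc finger factor required for *Pomc* expression, was counted in 10 of 34 Ghost and 16 of 42 Pomc+ cells. On CD the means were 17.4 and 38.1 CPM, a log2 ratio of -1.13, which became -0.35 without cell 631 (Pomc+ CD, 562 counts, the cell with the most total counts). On HFD 7 of 19 cells held it in each label, with means of 16 and 21.8 CPM.

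*Nhlh2*, a basic helix-loop-helix factor that acts on the prohormone convertase gene *Pcsk1*, was counted in 8 of 34 Ghost and 16 of 42 Pomc+ cells. Its mean was 19.4 CPM in Ghost and 45.8 CPM in Pomc+ cells, a log2 ratio of -1.24. Without cell 701 (Pomc+ CD, 22 counts among 32151) the ratio was -0.64, and within blocks of neighbouring cell numbers it was also -0.64. On CD alone the log2 ratio was -1.16, and -0.50 without cell 701. Over both diets the share after thinning was 21.7% in Ghost and 24.9% in Pomc+ cells.

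*Sox2*, a progenitor factor that also stays on in astrocytes and tanycytes, had means of 26.5 CPM in Ghost and 22 CPM in Pomc+ cells. The direction rested on shallow cells. Cell 713 (Ghost HFD, 6 counts among 12847) gave 51.8% of the Ghost sum, and over cells with at least 40000 counts the means were 7.70 and 23.7 CPM. *Sox2* was counted in 8 of 34 Ghost and 13 of 42 Pomc+ cells. Across the 76 cells its rank correlation with the summed astrocyte markers was 0.07. Of the 5 cells highest in *Sox2*, the shallow cell 713 had none of these markers, and the others had sums of 106 to 595 CPM. The part of astrocyte RNA in the *Sox2* values was not tested. *Sox2* lies inside the long gene *Sox2ot* on the same strand without a shared exon base. *Sox2ot* was counted in 9 cells, 6 of them Ghost.

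The second question was how the factors stood on HFD and CD within each label. In Pomc+ cells, 5 of 8 factors had a lower mean on HFD, where 46.3% of all genes had. By 2-fold or more, 3 factors were lower (22.5% of all genes) and *Sox2* was higher (28.6% of all genes). In Ghost cells, 3 of 8 had a lower mean on HFD, where 49.8% of all genes had. Of these 3, 1 was lower by 2-fold or more (28.1% of all genes). *Tbx3*, *Nkx2-1* and *Sox2* were higher by 2-fold or more (30.1% of all genes). The medians over the 8 factors were -0.43 in Pomc+ and 0.78 in Ghost cells, beside 0.12 and 0.01 over all genes. Each comparison on CD and HFD shares its cells with those between labels above. A run of consecutive cell numbers holds cells of 1 diet only, so the diets could not be compared within runs. The median total counts of the runs lay between 96546 and 881590. All 6 microglial markers examined had means more than 2-fold higher on HFD in both labels, and their summed median in Pomc+ cells was 0.688 CPM on CD and 264 CPM on HFD. Their part in the factors' values was not tested.

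*Nhlh2* had a lower mean on HFD in both labels. In Pomc+ cells it was counted in 10 of 23 cells on CD, with a highest value of 684 CPM, and in 6 of 19 on HFD, with a highest value of 139 CPM. The summed counts were 688 (638 to 741) and 51 (38 to 67.1), and the means of 75.3 and 10.1 CPM gave a log2 ratio of -2.89. This ratio was past 2-fold under all other settings tried and lay between -4.65 and -2.23 when each cell was left out. In Ghost cells the means were 33.6 CPM on CD and 8.27 CPM on HFD, a log2 ratio of -2.02, but the summed counts over summed totals gave 0.36, with 69 counts on CD and 174 on HFD.

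*Tbx3* had opposite directions in the labels, and this difference between them was not tested. In Pomc+ cells its mean was 57.1 CPM on CD and 22.2 CPM on HFD, a log2 ratio of -1.36 (-1.66 to -1.11 when each cell was left out). *Pomc* in these cells had means of 11652 and 3414 CPM, a log2 ratio of -1.77. In Ghost cells the mean of *Tbx3* was 9.96 CPM on CD and 30.7 CPM on HFD, a log2 ratio of 1.62, and 0.97 without cell 715. *Nkx2-1* in Ghost cells had means of 1.52 CPM on CD and 11.7 CPM on HFD, a log2 ratio of 2.94 (2.16 to 4.20), from 11 and 135 counts.

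*Foxo1* in Pomc+ cells had means of 27 CPM on CD and 9.32 CPM on HFD. Its log2 ratio of -1.53 turned to 0.42 without cell 685, so its direction rests on that cell. *Sox2* in Ghost cells had means of 16.3 CPM on CD and 34.6 CPM on HFD, and its log2 ratio of 1.08 turned to -0.63 without cell 713. In Pomc+ cells the log2 ratio of *Sox2* was 1.22, and 0.46 without cell 673. It was 0.65 there with the deposited normalized counts and 1.89 with summed counts. By mean CPM, *Isl1*, *Prdm12* and *Tcf4* were under 2-fold between diets in both labels, with log2 ratios between -0.81 and 0.62. With summed counts *Prdm12* in Pomc+ cells was at -2.35 and *Tcf4* in Ghost cells at 1.32, and with the deposited normalized counts they were at -1.04 and 2.32. In Pomc+ cells *Prdm12* was at -1.42 without cell 670 and *Tcf4* at 1.16 without cell 704.

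The third question was whether each factor follows *Pomc* from cell to cell. Spearman's rho with *Pomc* CPM over 76 cells was 0.45 for *Prdm12*, 0.34 for *Isl1* and for *Nkx2-1*, 0.18 for *Tbx3*, 0.16 for *Tcf4* and *Foxo1*, 0.13 for *Sox2* and 0.06 for *Nhlh2*. These values are a description, since both genes of each pair share the library and its depth. The median over 12264 genes was 0.21, the middle 50% ran from 0.12 to 0.29, and 3 of 8 factors lay above the median. *Prdm12* was above 98.0% of all genes, *Isl1* above 85.8% and *Nkx2-1* above 85.6%. *Cartpt*, the other peptide gene of these neurons, had a rho of 0.76.

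Within the 4 groups, the rho of *Prdm12* with *Pomc* was 0.53 in Pomc+ CD, 0.35 in Ghost CD, 0.45 in Pomc+ HFD and 0.57 in Ghost HFD. *Isl1* lay between 0.33 and 0.50 in the 4 groups. It was above *Prdm12* in Ghost CD (0.44) and Pomc+ HFD (0.50) cells. *Tbx3* lay between -0.05 and 0.22, and *Nhlh2* between -0.18 and 0.08. The median gene was at 0.26 in Pomc+ CD, 0.22 in Ghost CD, 0.16 in Pomc+ HFD and 0.30 in Ghost HFD cells. In every group, *Prdm12* and *Isl1* were above that median and *Nhlh2* was below it. The number of genes counted in a cell went with both sides of these pairs, with a rho of 0.49 with *Pomc*, 0.57 with *Prdm12* and 0.61 with *Tbx3*. With its rank taken out, the rho with *Pomc* was 0.24 for *Prdm12*, 0.18 for *Isl1*, 0.12 for *Nkx2-1* and -0.17 for *Tbx3*, while that of *Cartpt* was 0.78.

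**Figure D4:**
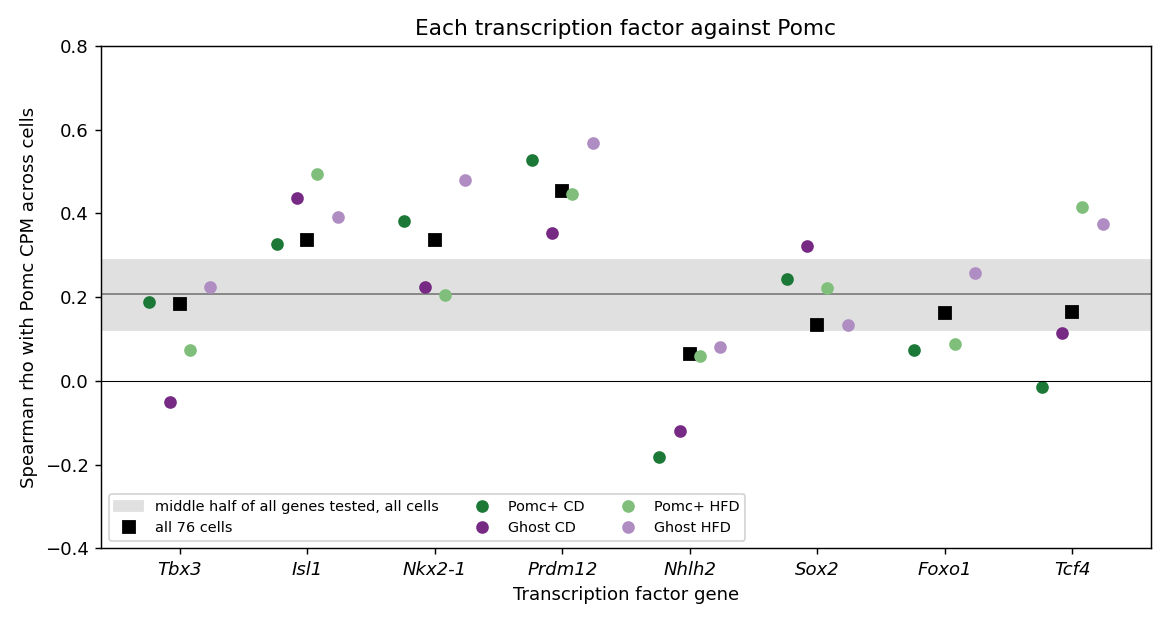
Spearman's rho of each factor with *Pomc* CPM (vertical axis) over all 76 cells, as black squares, and within each label and diet, as coloured points. The grey band is the middle 50% of all genes tested over all cells. *Prdm12* and *Isl1* lie above the band in every group, and *Nhlh2* lies below it in every group. The band does not describe single groups, and in Ghost HFD cells the median gene, at 0.30, lies above it.

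Cells held between 0 and 7 of the 8 factors. The median was 3 in Pomc+ CD, Ghost CD and Pomc+ HFD cells and 2 in Ghost HFD cells, and 7 cells held none, 5 of them Pomc+. At least 4 factors were counted in 19 of 42 Pomc+ and 8 of 34 Ghost cells. After thinning, the mean number was 2.55 in 39 Pomc+ and 2.1 in 29 Ghost cells. Across all cells the number of factors followed the number of genes counted (rho 0.77) more closely than it followed *Pomc* (rho 0.47). The pairs counted together most in rank were *Nkx2-1* with *Prdm12* (14 cells, rho 0.42), *Tbx3* with *Nkx2-1* (17 cells, 0.41) and *Tbx3* with *Prdm12* (18 cells, 0.38). *Foxo1* with *Tcf4* had the lowest value, -0.12, with 7 cells that held both.

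**Figure D5:**
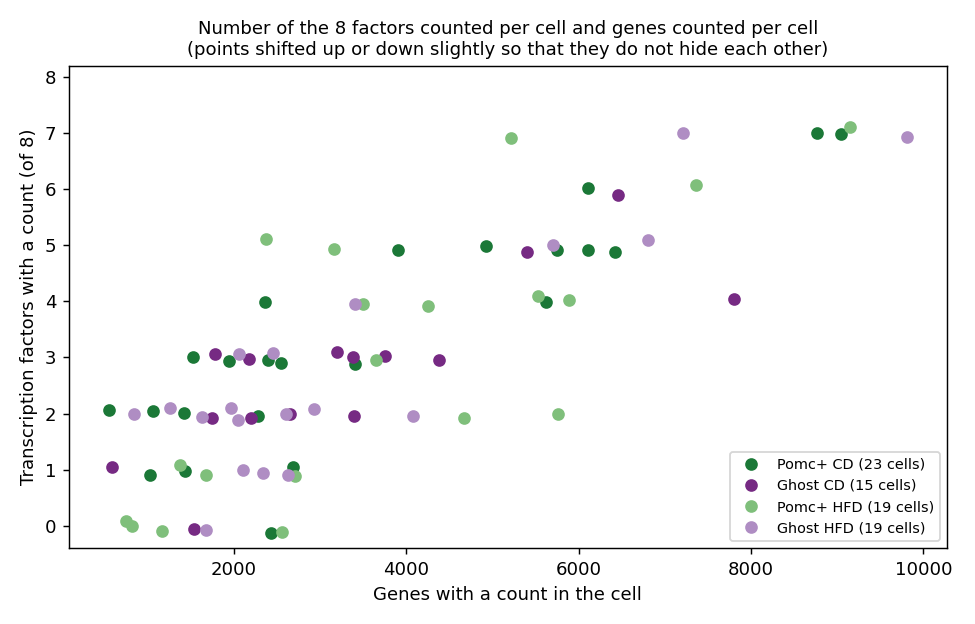
Number of the 8 factors with a count (vertical axis, points shifted slightly to be seen) against the number of genes with a count in the cell, by label and diet. The 9 cells with 6 or 7 factors come from all 4 groups and have at least 5209 genes counted.

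For each factor the genes with the most similar CPM over the 76 cells were found among 9130 genes counted in at least 10 cells. For *Prdm12* they were *Ap1m1* (rho 0.68), *Cep120* (0.66) and *Mrpl4* (0.65), and for *Tbx3* they were *Hdgf* (0.67), *Clk1* (0.62) and *Snw1* (0.62). *Klhl7* (0.64), *Dop1a* (0.61) and *Zfp26* (0.60) were nearest to *Nkx2-1*. *Zmym1* (0.57), *Ogt* (0.56) and *Tmem214* (0.55) were nearest to *Sox2*, and *Med4* (0.55), *App* (0.55) and *Npepps* (0.53) to *Isl1*. *Sec23a* (0.53), *Mapk6* (0.52) and *Cdkn2aipnl* (0.48) were nearest to *Nhlh2*, *Gspt1* (0.50), *Coq10a* (0.49) and *Map2k5* (0.48) to *Foxo1*, and *Ctnna1* (0.44), *Pcdh19* (0.44) and *Vps37a* (0.44) to *Tcf4*. None of the 8 factors was among the nearest genes of another, and these values share the depth of each library.

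Relatives of the factors made up a list of 13 genes of the same families. Of these, 11 had a count and the median was 5 cells, whereas *Isl2* and *Nhlh1* had none, which allows up to 3.95% of cells. *Tcf12*, another E protein, was counted in 17 cells, *Sox1* in 14 and *Sox3* and *Foxo3* in 13 each, all 4 above the 11 cells of *Foxo1*. Of 7 relatives that passed the filter, 5 had a lower mean in Ghost cells (56.2% of all genes). Of these, 3 were lower by 2-fold or more (26% of all genes). *Foxo3*, a second forkhead factor of the insulin pathway, was one of these, with 3 of 34 Ghost and 10 of 42 Pomc+ cells and a log2 ratio of -4.88. The related *Foxo4* and *Foxo6*, counted in 5 cells each, went the other way, with log2 ratios of 0.74 and 0.27. These ratios were not recomputed with single cells left out.

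Of 12 partners and inhibitors of the factors, 9 were counted in at least 10 cells. Of the inhibitors of E proteins, *Id4* was counted in 28 cells, *Id2* in 25, and *Id1* and *Id3* in 3 each. *Stat3*, the leptin-activated factor, was counted in 42 cells, *Ldb1*, the cofactor of LIM-homeodomain proteins, in 31 and the coactivator *Crebbp* in 30. Of 10 that passed the filter, 4 were lower in Ghost cells (56.2% of all genes). By 2-fold or more, 1 of the 10 was lower (26% of all genes) and 1 was higher (16.4% of all genes). Their median log2 ratio was 0.23.

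Among 14 factors of progenitors and early neurons, those with no count included *Neurog2*, *Neurog3* and *Rax*. *Six3* was counted in 55 cells, more than any of the 8 factors, *Six6* in 29 and *Sox11* in 24, the first of these a patterning factor of the anterior brain. *Six3* means were 105 CPM in Pomc+ CD, 81.3 in Ghost CD, 102 in Pomc+ HFD and 79.8 in Ghost HFD cells. Of 7 in the list that passed the filter, 3 were higher by 2-fold or more in Ghost cells (16.4% of all genes) and 1 was lower by as much (26% of all genes), with a median log2 ratio of 0.84.

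Factors of other arcuate neurons were led by *Otp*, which marks AgRP neurons among others, in 28 cells, *Dlx1* in 12 and *Dlx6* in 8. All 12 had a count in at least 1 cell. None of the 5 that passed the filter had a lower mean in Ghost cells over both diets, where 56.2% of all genes had, and 2 were higher by 2-fold or more (16.4% of all genes), with a median log2 ratio of 0.68. *Otp* had means of 11.7 CPM in Pomc+ CD, 32.1 in Ghost CD, 13.4 in Pomc+ HFD and 28.5 in Ghost HFD cells. It was counted in 8 of 23, 3 of 15, 7 of 19 and 10 of 19 of these cells, so on CD its share was lower in Ghost cells. *Npy*, a peptide of AgRP neurons, was counted in 13 of 34 Ghost and 4 of 42 Pomc+ cells. The part of neighbouring cells' RNA in these values was not tested. Of 14 factors of other tissues 7 had no count, and the rest were led by *Spi1*, a myeloid factor, in 9 cells and *Tbx19*, the T-box factor of pituitary corticotrophs, in 2. Their median was 0.5 cells.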

How the data were processed

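Single-cell cDNA (SMART-Seq Single Cell kit) was turned into Nextera XT libraries, which do not mark strand. The submitters' processing notes name cutadapt 2.10, STAR 2.7.5a and DESeq2 with GRCm38 (mm10). The counting program is not given in the sources used here. The deposited raw table holds the authors' whole-number counts per Ensembl gene and cell. The deposited normalized table holds a signal in which all counts of a cell share 1 divisor, its size factor. Of 56980 identifiers, 52073 matched a symbol. Some of the others may belong to a later annotation than GENCODE M21, whose GRCm38 coordinates and exon lengths are used here.

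CPM is the count over the cell's total, times 1000000. Groups were set by the labels and compared by the ratio of mean CPM, called at 2-fold, over genes that reached 5 counts in 3 or more cells. A group with no count was set at 3 counts over its summed total. Thinning drew 40000 counts per cell without replacement, 20 times, and left out 8 cells. No cell was otherwise left out and no doublet caller was run, since each cell was patched by hand. Blocks are the 8 runs of consecutive cell numbers from 1 diet. Python 3.11.15, numpy 2.4.6 and scipy 1.17.1 were used, and ratios and correlations were tested on simulated data.

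The factors, the lists and the marker genes were chosen with earlier results of these data known. All 8 factors are named, with the genes counted in the most cells of each list (up to 3), the 3 genes nearest to each factor by rho and the genes that overlap a factor. *Foxo3* (tied with *Sox3*), *Foxo4*, *Foxo6*, *Id1*, *Id2*, *Id3*, *Id4*, *Npy*, *Agrp*, *Snap25* and genes at 0 were named after their values were seen.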

Additional observations from a re-analysis of the deposited data

How the results depend on the processing

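The number of factors with a lower mean in Ghost cells on HFD was 4, and it was 2 with summed counts over summed totals, 1 within blocks of cell numbers, and 6 with normalized counts, after thinning and under both filters on cells. On CD it was 5, and 5 to 7 under the other settings. The number lower on HFD in Ghost cells was 3, and 1 with summed counts over summed totals. The number with a rho with *Pomc* above the median gene was 3, and 5 with the deposited normalized counts or within Pomc+ HFD cells. Leaving out each cell in turn gave 5 to 6 factors lower in Ghost cells over both diets and on CD, 3 to 6 on HFD, 4 to 5 lower on HFD in Pomc+ and 2 to 4 in Ghost cells, and 3 to 4 above the median rho. The share of Ghost HFD cells with *Tcf4* was 54.7% after thinning and 52.6% at 5 counts or more, against 84.2%. The other 31 shares stayed within their intervals under both settings.

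For single factors, *Nhlh2* on HFD over CD in Ghost cells turned from -2.02 to 0.36 (log2) with summed counts, and *Sox2* there turned from 1.08 to -0.73 when cells under 1000 genes or over 20% mitochondrial counts were left out. Leaving out each cell in turn took *Sox2* there from -0.63 to 3.86, and *Foxo1* on HFD over CD in Pomc+ cells from -4.36 to 0.42. The cause was not tested, except that summed counts give deep cells more weight by construction. The median log2 ratio of Ghost over Pomc+ cells over all genes counted in both was -0.15 by CPM and -0.64 with the deposited normalized counts. With no filter on low counts, 25% of all genes were higher by 2-fold or more in Ghost cells over both diets, against 16.4%. No paired analysis was possible because the labels tie no cell to a mouse. Depth limits all shares, and the numbers of cells with *Foxo1* or *Nkx2-1* are small.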
